A study of Mus musculus with 108 samples.

Results

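High-confidence autism risk genes are genes in which rare disrupting mutations recur in people with autism. The mouse counterparts of 37 such genes were chosen by name, not by any measured value, though with earlier results of these data known. Each symbol mapped to 1 of the 53465 gene rows of the count table by its Ensembl identifier. RNA was sequenced from WT mice and Cul3+/- mice, in libraries of 1 brain region of 1 mouse each. The regions were the cortex (CX), the hippocampus (HIP) and the cerebellum (CB). At E17.5 (embryonic) and at P7 (early postnatal) each region came from 6 WT and 6 Cul3+/- mice, and at P35 (adult) from 5 mice of each genotype. A further 2 adult mice, 6 libraries in all, were left out because the labels and the study's own quality table give them opposite genotypes, which left 102 of 108 libraries. All mice were of the strain that the labels spell C56Bl/6N, and the labels name no treatment and no sex. The Cul3+/- mice carry in every cell a 1-bp insertion that shifts the reading frame of exon 6 of Cul3. The line goes back to a single edited founder that was crossed to WT mice over several generations.

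The risk genes fall into a small number of roles. Most of them act in the nucleus. Chromatin remodelers move nucleosomes, and histone methyltransferases and demethylases write and erase marks that set which genes can be read. Transcription factors bind DNA, and coregulators link those factors to the transcription machinery. A smaller share works in kinase signalling, translation and protein turnover, or at the neuronal membrane and cytoskeleton, where axons and synapses are built. Disruption of 1 copy of such a gene in people is associated with autism, often with intellectual disability, and many of the regulators are known for high activity in the brain before birth. Cul3 encodes the scaffold of a ubiquitin ligase that marks proteins for degradation, and is itself an autism risk gene.

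Levels are given as CPM, the counts of a gene scaled to the same TMM-normalized library size, and differences as log2 fold changes with their standard error (SE). A gene was called at a Benjamini-Hochberg adjusted p under 0.1 in edgeR's quasi-likelihood test over all genes that passed the filter on low counts. All 37 genes passed that filter in every comparison, and the lowest count of any of them in a library was 26. Library totals ran from 15126114 to 44411282 counts. Cul3 in Cul3+/- mice was at 50.3% to 60.0% of its WT mean in the 9 combinations of age and region, with no overlap between genotypes. The regions carried their markers. In WT mice at P7, the median of the summed level of 5 markers of cortical and hippocampal excitatory neurons was 554 CPM in CX, 484 in HIP and 208 in CB. That of 5 markers of cerebellar granule cells was 1607 CPM in CB, 22.6 in CX and 37.7 in HIP. In 13 of the 102 libraries the deviation of genes from the median of their group rose with exon length (Spearman correlation above 0.2 across genes), and values that moved clearly without these libraries are given both ways. Libraries that deviated the other way were all kept, with correlations down to −0.305. The risk genes are long. Their median exon length was 13.8 kb, against 4.48 kb for 14840 protein-coding genes with a mean count of at least 10, and their median span in the genome was 109 kb against 25.3 kb. Over the 102 libraries, the mean deviation of the 37 genes from their group medians had a Spearman correlation of 0.83 with this length measure, and of 0.77 without the 13, with each library counted as a point although 3 libraries came from each mouse. A fit without the 13 thus takes out only libraries in which these genes were high on average. It lowers them in the affected groups and is not an independent check.

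The 37 genes were mostly highest before birth. Among the 9 WT combinations of age and region, the highest mean level lay at E17.5 for 28 genes, at P7 for 6 and at P35 for 3, and the lowest lay at P35 for 21, at P7 for 13 and at E17.5 for 3. By region, the highest mean lay in CX for 24 genes, in HIP for 11 and in CB for 2. For all genes but Deaf1, Kmt5b, Med13l and Phip the ranges of the 2 highest groups overlapped, often those of CX and HIP at E17.5. These counts order means only, and the shares over all genes are not given here. The ratio of the highest to the lowest group mean was 30.5 for Bcl11a, a zinc finger repressor of transcription, 17.7 for Adnp, 9.16 for Asxl3, 8.11 for Kdm6b and 6.48 for Foxp1. Among the flattest genes it was 1.24 for Wac, a cofactor of histone H2B ubiquitination, 1.32 for the kinase gene Dyrk1a and 1.37 for Fmr1. Per kb of exon length and over the 9 WT groups, Ctnnb1 was the most abundant at a mean of 163 CPM per kb, followed by Tcf4 at 25.5 and Ank2 at 25.2, and Katnal2 (0.814) and Tcf7l2 (0.254) were the least abundant.

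**Figure D1:**
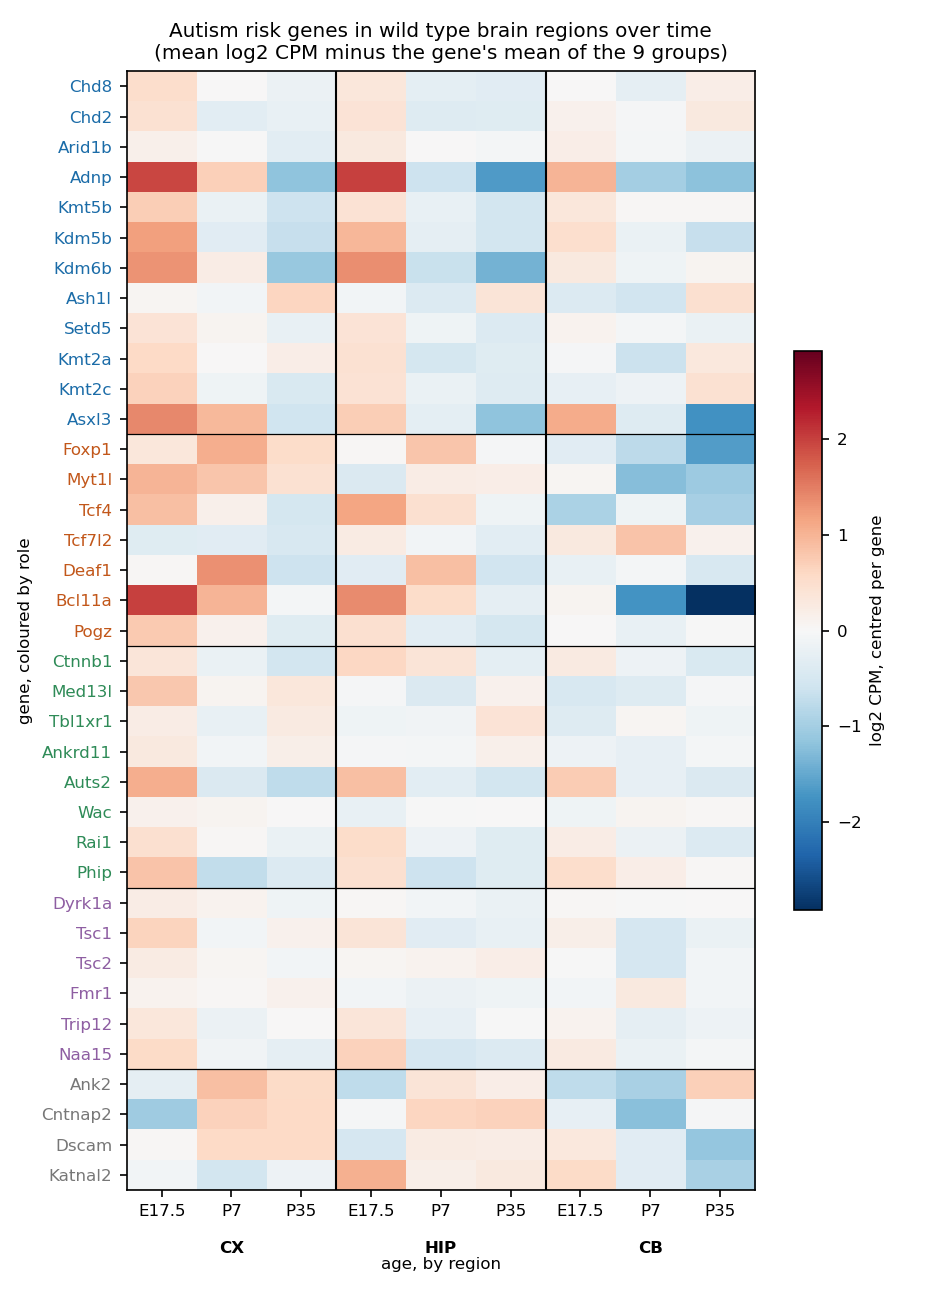
Mean log2 CPM of the 37 risk genes in the 9 WT groups (columns, 3 ages in each of 3 regions), with each gene (row) centred on its own mean over the groups, so that red is above and blue below that mean. Gene names are coloured by role (blue, chromatin; orange, DNA-binding transcription factors; green, coregulators; purple, signalling, translation and protein turnover; grey, cell surface and cytoskeleton), and 28 of the 37 rows have their highest group at E17.5.

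From E17.5 to P7 in WT mice, 29 of the 37 genes fell and 5 rose in CX, where 81.9% of all genes tested were called, 40.6% lower and 41.3% higher. In HIP 25 fell and 6 rose, where 78% of all genes were called, 39.1% lower and 38.9% higher. In CB 24 fell and 5 rose, where 71.2% were called, 35.5% lower and 35.7% higher. The median log2 fold change of the 37 genes was −0.565 in CX, −0.601 in HIP and −0.336 in CB, beside medians of 0.012, −0.005 and −0.005 over all genes. The Cul3+/- mice share no library with the WT fit. In their CX 30 genes fell and 5 rose (85.3% of all genes called, 42.4% lower and 42.9% higher). In their HIP 23 fell and 8 rose (79.2% called, 39.1% lower and 40.1% higher), and in their CB 28 fell and 6 rose (75.1% called, 37.4% lower and 37.6% higher). The regions were taken from the same mice, so the 3 fits are not independent of each other. In WT mice 17 genes (45.9%) fell in all 3 regions, where 15.6% of the 17435 genes tested in every region did so. They were Chd8, Chd2, Arid1b, Adnp, Kmt5b, Kdm5b, Kmt2a, Asxl3, Bcl11a, Ctnnb1, Auts2, Rai1, Phip, Tsc1, Trip12, Naa15 and Katnal2. Deaf1 was the 1 gene that rose in all 3 (16.3% of all genes), and Tcf7l2 was called in none. Whole tissue was sequenced, so a fall in the share of cells that express a gene and a fall in its RNA per cell cannot be told apart. Over the same interval the median of the summed level of 5 markers of dividing cells went from 378 to 70.7 CPM in CX and from 667 to 964 CPM in CB. That of 5 markers of immature neurons went from 6701 to 2301 CPM in CX and from 3150 to 2294 CPM in CB, and the part of these cells in the result was not tested.

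The sequences just upstream of genes with large changes in WT mice between E17.5 and P7 are printed here because these genes had the largest changes of that interval. Cntnap2, Deaf1 and Ank2 had the 3 largest rises in CX, Phip and Kdm5b were among the 3 largest falls there, and Adnp had the largest falls in HIP and CB. Each run holds the 250 bases before the annotated start, on the strand of the gene, from RefSeq promoters of build GRCm38.p6: Cntnap2 at chr6:45059811-45060060 (plus strand), Deaf1 at chr7:141338784-141339033 (minus), Ank2 at chr3:127499116-127499365 (minus), Phip at chr9:82975490-82975739 (minus), Kdm5b at chr1:134559928-134560177 (plus) and Adnp at chr2:168207113-168207362 (minus). Capitals mark GGGCGG, the core of the GC box, or its reverse complement CCGCCC, and TATAAA or its reverse complement TTTATA. The motifs do not overlap each other in these runs.
Cntnap2: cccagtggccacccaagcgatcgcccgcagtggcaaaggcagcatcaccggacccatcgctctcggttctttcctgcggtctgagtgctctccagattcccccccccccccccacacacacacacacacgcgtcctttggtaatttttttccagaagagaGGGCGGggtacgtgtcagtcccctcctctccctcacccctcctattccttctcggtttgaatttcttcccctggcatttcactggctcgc
Deaf1: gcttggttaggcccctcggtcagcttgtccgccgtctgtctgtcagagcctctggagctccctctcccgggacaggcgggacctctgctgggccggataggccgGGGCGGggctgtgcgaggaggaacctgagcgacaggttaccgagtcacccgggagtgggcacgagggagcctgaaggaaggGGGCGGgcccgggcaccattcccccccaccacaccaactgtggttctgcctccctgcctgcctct
Ank2: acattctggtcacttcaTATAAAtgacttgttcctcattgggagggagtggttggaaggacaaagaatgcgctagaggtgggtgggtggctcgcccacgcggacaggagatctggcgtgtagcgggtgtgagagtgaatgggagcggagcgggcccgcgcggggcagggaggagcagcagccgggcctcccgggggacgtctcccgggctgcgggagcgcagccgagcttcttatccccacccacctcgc
Phip: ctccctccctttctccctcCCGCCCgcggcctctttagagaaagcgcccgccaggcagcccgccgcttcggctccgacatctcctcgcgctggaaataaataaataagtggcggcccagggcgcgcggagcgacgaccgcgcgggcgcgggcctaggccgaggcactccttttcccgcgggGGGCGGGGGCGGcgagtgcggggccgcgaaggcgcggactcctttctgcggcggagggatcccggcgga
Kdm5b: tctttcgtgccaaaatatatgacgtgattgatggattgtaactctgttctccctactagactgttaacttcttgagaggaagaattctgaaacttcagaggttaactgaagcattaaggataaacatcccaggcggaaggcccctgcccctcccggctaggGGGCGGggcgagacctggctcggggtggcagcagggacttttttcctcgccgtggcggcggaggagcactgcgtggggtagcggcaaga
Adnp: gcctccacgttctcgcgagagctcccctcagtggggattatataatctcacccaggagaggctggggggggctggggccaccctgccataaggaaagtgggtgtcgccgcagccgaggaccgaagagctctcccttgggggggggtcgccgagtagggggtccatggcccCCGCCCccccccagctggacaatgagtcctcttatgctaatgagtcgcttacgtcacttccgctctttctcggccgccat
The run of Phip holds 3 GC boxes and 37 CG dinucleotides, that of Deaf1 2 GC boxes and 15 CG, those of Cntnap2, Kdm5b and Adnp 1 GC box each, and that of Ank2 none, with the single TATAAA. RefSeq promoters were at hand for 29 of the 37 genes in 46 entries of 300 bases (250 before and 50 after the start), and those of Ash1l, Asxl3, Auts2, Chd2, Katnal2, Kdm6b, Tcf4 and Wac were not used here. On either strand, GGGCGG stood in 28 of the 46 entries (60.9%), against 35.7% of 32851 entries of all genes, and TATAAA in 3 (6.52%) against 13.6%. GGGCGG stood in 22 of 32 entries of genes that fell in WT CX between E17.5 and P7 (68.8%) and in 5 of 12 entries of genes that rose (41.7%). These entries came from 23 and 5 genes, so entries of the same gene are not independent. The entries of all genes came from 27025 genes and were not limited to those expressed here. A match describes the letters in the window and is not evidence that a factor binds there.

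Among the 12 genes of chromatin remodelling and histone modification, 11 fell in CX between E17.5 and P7, 12 in HIP and 8 in CB, and none rose. Their median log2 fold changes were −0.71, −0.74 and −0.31. Kdm5b, which removes methyl groups from lysine 4 of histone H3, is an example that changed in all regions with little spread. In WT CX its lowest, median and highest levels were 339, 381 and 466 CPM at E17.5 and 122, 133 and 155 CPM at P7. In HIP they were 293, 337 and 380 CPM against 131, 140 and 149 CPM. Every P7 library lay well below every E17.5 library in both regions. The log2 fold change was −1.56 ± 0.0767 in CX (edgeR, adjusted p = 4.28e-12) and −1.26 ± 0.0702 in HIP (adjusted p = 4.67e-11). Chd2, a chromatin remodeler, went from 110, 123 and 144 CPM to 68.0, 73.4 and 80.4 CPM in CX (lowest, median, highest), again without overlap. Its log2 change was −0.80, and −0.95 with the counts of 1810026B05Rik added, a row that shares its exons on the same strand and holds 23.5% as many counts. Arid1b, a subunit of the BAF remodelling complex, had small changes in the same direction, at −0.21 in CX, −0.31 in HIP and −0.26 in CB, all called.

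Adnp, a DNA-binding protein that recruits a chromatin remodeler, had the lowest estimates of all 37 genes in HIP and CB, and its values varied most between mice. In WT HIP its levels were 17, 68.4 and 205 CPM at E17.5 (lowest, median, highest) and 7.92, 12.5 and 13.7 CPM at P7, and in WT CB 24.1, 30.3 and 83.6 against 8.05, 8.55 and 9.27 CPM. The ranges did not overlap in either region, but the E17.5 values themselves spread widely. The log2 fold change was −3.09 ± 0.462 in HIP (edgeR, adjusted p = 9.8e-06) and −2.15 ± 0.47 in CB (adjusted p = 0.000584), and −2.10 in HIP without the libraries that deviated with exon length. The row of Adnp does not hold all reads of the locus: the annotation has a readthrough gene, Gm20716, on the same strand that shares the last 3 exons of Adnp, and it was given 404% of the counts of Adnp over the used libraries. Its group means stayed between 90.9 and 128 CPM. For the sum of both rows the group means in HIP were 220 CPM at E17.5, 117 at P7 and 108 at P35, and the log2 change from E17.5 to P7 was −0.92 ± 0.15 in HIP (adjusted p = 2.49e-05), −0.49 ± 0.145 in CB (adjusted p = 0.00626) and −0.44 ± 0.181 in CX (adjusted p = 0.0346). With the rows added, Adnp was still called lower at P7 in all 3 regions, at a much smaller size.

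Kdm6b, a demethylase of lysine 27 of histone H3, was the other gene of this role with a large fall in HIP, from 16, 36.6 and 90.1 CPM at E17.5 to 8.04, 8.92 and 13.7 CPM at P7. The ranges did not overlap, and the log2 fold change was −2.29 ± 0.343 (edgeR, adjusted p = 1e-05), or −1.63 without the libraries that deviated with exon length. Asxl3, a partner of a histone deubiquitinase, fell in CB from 35.7, 44.8 and 68.7 CPM to 14.4, 15.8 and 20.4 CPM, also without overlap (log2 fold change −1.52 ± 0.212, adjusted p = 5.08e-06).

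After P7 the chromatin genes moved in both directions. In CX 8 fell and 1 rose from P7 to P35, in HIP 5 fell and 1 rose, and in CB 2 fell and 5 rose. Ash1l, which methylates lysine 36 of histone H3, was the gene that rose in each region. Its P7 levels in WT CX were 114, 135 and 199 CPM (lowest, median, highest), and its 5 adult values 209, 228, 236, 242 and 246 CPM. In HIP the P7 values were 110, 111 and 118 CPM and the adult values 178, 188, 193, 203 and 203 CPM. All adult libraries lay above all P7 libraries in both regions, with log2 changes of 0.74 ± 0.127 in CX (edgeR, adjusted p = 5.91e-05) and 0.80 ± 0.103 in HIP (adjusted p = 2.94e-06). Asxl3 kept falling in every region. The 5 adult WT mice had 12.5, 13.7, 14.6, 15.2 and 16.1 CPM in CX, where the P7 mice had 28.1, 39.2 and 73.8, and the log2 changes were −1.56 ± 0.279 in CX (adjusted p = 9.57e-05), −0.88 ± 0.271 in HIP (adjusted p = 0.0104) and −1.28 ± 0.234 in CB (adjusted p = 6.81e-05). Adnp on its own row was lower in the adult CX, at 5.94, 6.01, 6.81, 10.1 and 10.1 CPM against 14.2, 23.8 and 117 at P7. That log2 change was −2.22 ± 0.566 (adjusted p = 0.00235), against −1.43 without the libraries that deviated with exon length and −0.39 ± 0.191 (adjusted p = 0.0818) for the sum with Gm20716. In HIP the change of Adnp from P7 to P35 was −1.04 ± 0.487 on its own row (adjusted p = 0.0788) and −0.09 for the sum (adjusted p = 0.653), which was not called. On its own row it also lost its call without any 1 of the WT HIP replicates 1, 2, 4 and 6 of P7 or 1, 2 and 5 of P35, with an adjusted p of 0.109 to 0.15.

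In the adult CB, 2 of the 5 WT libraries (replicates 3 and 5) were among the 13 that deviated with exon length, and rises of chromatin genes there rest partly on them. Kmt2a, which methylates lysine 4 of histone H3, was at 70.4, 71.7, 80.8, 151 and 239 CPM in the adult WT CB and at 47.5, 53.7 and 67.0 CPM at P7. The ranges did not overlap, but the log2 change of 1.13 ± 0.255 (edgeR, adjusted p = 0.000558) was 0.41 without the 13 libraries. The changes of Kmt2c (0.64) and Chd8 (0.50) became 0.32 and 0.26 without them, and those of Adnp (0.41) and Kdm6b (0.62), which were not called, became −1.10 and −0.52. Over the 37 genes, 14 rose and 12 fell in CB from P7 to P35, where 79.4% of all genes were called, 40% higher and 39.4% lower. Without the 13 libraries 11 rose and 19 fell. In Cul3+/- mice 9 rose and 20 fell, with 79.3% of all genes called, 39.6% higher and 39.7% lower.

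Of the 7 DNA-binding transcription factors, 2 rose and 4 fell in CX from E17.5 to P7, 3 rose and 3 fell in HIP, and 2 rose and 3 fell in CB. From P7 to P35 none rose in CX or HIP, where 6 and 4 fell. Deaf1, a SAND domain factor, peaked at P7 in the forebrain regions. In WT CX its levels were 34.4, 40.2 and 49.4 CPM at E17.5 (lowest, median, highest), 90.1, 98.8 and 116 CPM at P7, and 21.9, 25.3, 25.5, 29.3 and 31 CPM in the 5 adult mice. No P7 library overlapped with the other ages, and the same held in HIP, where the medians were 32.5, 73.1 and 26.2 CPM. The rises were 1.25 ± 0.0905 in CX (edgeR, adjusted p = 5.75e-10) and 1.18 ± 0.0938 in HIP (adjusted p = 4.06e-09), and the later falls −1.88 ± 0.0985 in CX (adjusted p = 1.46e-11) and −1.41 ± 0.1 in HIP (adjusted p = 1.65e-09). In CB the medians of Deaf1 were 34.4, 38 and 27.6 CPM at the 3 ages, and its log2 changes of 0.15 and −0.38 were both called.

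Foxp1, a forkhead factor, likewise rose and then fell in the forebrain. In WT HIP it went from 48.7, 76.9 and 110 CPM at E17.5 to 107, 135 and 146 CPM at P7 and to 65.5, 70.2, 72.1, 76.4 and 78.2 CPM in adults. The P7 range met the E17.5 range at its edge and lay above all adult values (log2 changes 0.72 ± 0.142, edgeR adjusted p = 0.000183, and −0.84). In CB Foxp1 fell at both steps, from a median of 58.9 to 42.7 and then to 23 CPM, the later step by 0.86 on the log2 scale (SE 0.106, adjusted p = 6.41e-07). Bcl11a fell in every region at both steps. In WT CB its levels were 54.5, 69.2 and 115 CPM at E17.5, 18.4, 21.3 and 22.7 CPM at P7, and 7.82, 7.94, 9.03, 9.50 and 12.8 CPM in the 5 adults. The 3 ages did not overlap there, with log2 changes of −1.89 ± 0.164 (adjusted p = 1.23e-08) and −1.15 ± 0.177 (adjusted p = 1.01e-05). Tcf4, a basic helix-loop-helix factor, fell in CX and HIP but rose in CB, from 294, 329 and 347 CPM at E17.5 to 546, 568 and 590 CPM at P7. All P7 libraries were above all E17.5 libraries in CB (log2 change 0.79 ± 0.0511, adjusted p = 2.52e-10), while in CX they went from 1010, 1099 and 1277 to 628, 680 and 796 CPM, the reverse order. Tcf7l2, a mediator of Wnt signalling, was low throughout, between 1.01 and 5.15 CPM over the WT libraries, and was called in none of the 6 steps.

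**Figure D2:**
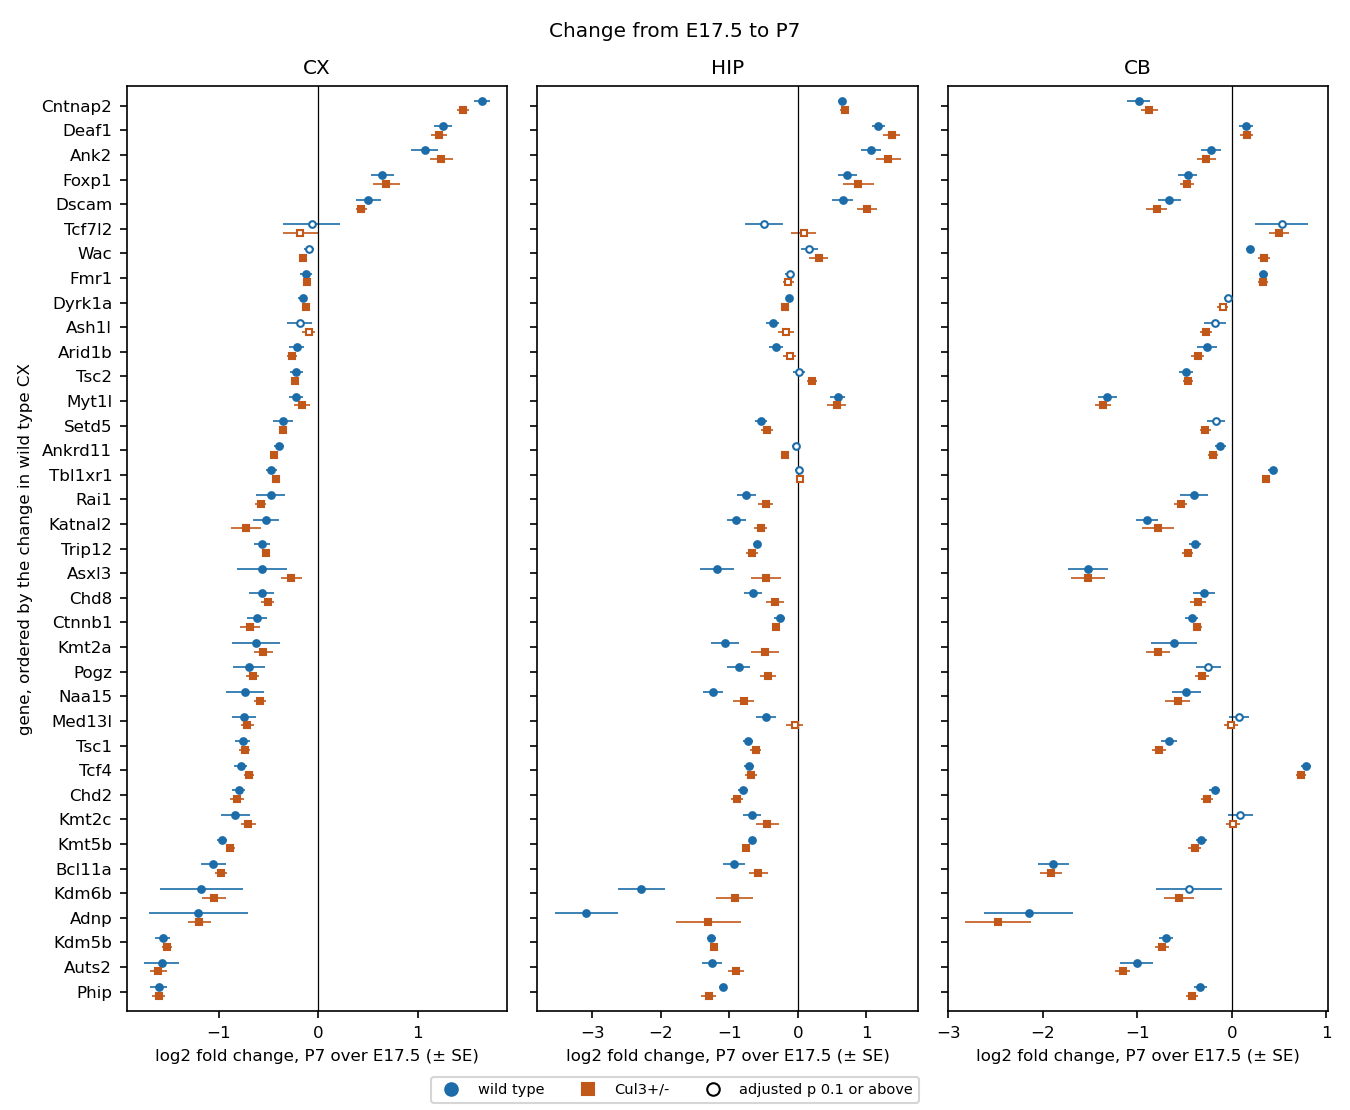
Log2 fold change from E17.5 to P7 of each of the 37 risk genes in CX, HIP and CB (panels with their own x scales; bars are ± 1 SE), for WT (circles) and Cul3+/- mice (squares), with open symbols where the adjusted p was 0.1 or more. In WT CX the estimates run from −1.60 (Phip) to 1.65 (Cntnap2), and symbols of both genotypes lie mostly to the left of 0.

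The 8 coregulators held no gene that rose between E17.5 and P7 in CX or HIP, where 7 and 5 fell, and in CB 2 rose and 5 fell. After P7, 4 rose and 1 fell in CX, and likewise in HIP. Phip, a bromodomain protein that acts with a ubiquitin ligase, had the largest fall of all in CX, from 279, 315 and 360 CPM at E17.5 to 93.3, 108 and 117 CPM at P7. The ranges were far apart (log2 change −1.60 ± 0.0822, edgeR adjusted p = 6.97e-12), and the P35 values, 121 to 146 CPM, lay above all P7 values. Auts2, a partner of Polycomb proteins, went in CX from 130, 149 and 287 CPM to 43.2, 60.6 and 80.6 CPM, also without overlap (−1.57 ± 0.176, adjusted p = 1.89e-07). Tbl1xr1, a subunit of the NCoR corepressor complex, fell in CX from 150, 152 and 174 CPM to 108, 114 and 130 CPM and was at 150, 151, 163, 168 and 170 CPM in adults. In HIP it did not move at first and then rose from 123, 124 and 129 CPM to 157, 179, 182, 186 and 190 CPM, and in CB it rose first, from 97.1, 102 and 109 to 136, 138 and 148 CPM, and fell later. Each of these steps left the ranges apart, with log2 changes of 0.50 ± 0.0575 in CX (P7 to P35, adjusted p = 4.93e-07), 0.54 ± 0.0595 in HIP (adjusted p = 4.64e-07) and 0.43 ± 0.0459 in CB (E17.5 to P7, adjusted p = 1.76e-07). Med13l, of the kinase module of Mediator, rose in HIP after P7, from 78.9, 82.5 and 91.6 CPM to 116, 120, 122, 127 and 129 CPM. That rise was 0.59 ± 0.153 (adjusted p = 0.0033), with adult values all above those at P7. Ctnnb1, which encodes beta-catenin of Wnt signalling and cell adhesion, fell at both steps in all regions, in HIP from medians of 1260 to 1061 and then 659 CPM. Wac was called in 1 of the 6 steps, a rise of 0.19 in CB before P7.

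All 6 genes of signalling, translation and protein turnover fell in CX between E17.5 and P7, 4 fell in HIP and none rose, and in CB 4 fell and 1 rose. Tsc1, which with Tsc2 restrains mTOR signalling, went in CX from 108, 117 and 121 CPM to 59.7, 69.0 and 89.5 CPM, and Trip12, a HECT ubiquitin ligase, from 301, 320 and 403 to 212, 225 and 287 CPM. Neither range overlapped, and both genes also fell in HIP and CB (Tsc1 by 0.73 and 0.67, Trip12 by 0.60 and 0.39 on the log2 scale). Fmr1, the RNA-binding regulator of translation that is silenced in fragile X syndrome, was the gene that rose in CB, from 82.2, 88.5 and 97.8 CPM to 107, 113 and 120 CPM. All P7 values were higher there (0.33 ± 0.0487, edgeR adjusted p = 8.38e-06), and Fmr1 was lower again in the adult CB, at a median of 89.6 CPM. Dyrk1a stayed between 112 and 164 CPM over all WT libraries. After P7, 3 of these genes rose and 1 fell in CX, 1 rose in HIP, and 3 rose and 1 fell in CB.

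Among the 4 genes of cell surface and cytoskeleton, Cntnap2, Ank2 and Dscam rose in CX and HIP from E17.5 to P7 and fell in CB, and Katnal2 fell in all 3 regions. Cntnap2, a neurexin-like protein of the axon, had the largest rise of all in CX, from 34.2, 39.9 and 47.2 CPM at E17.5 to 123, 129 and 146 CPM at P7. In CB it went the other way, from 65.8, 69.1 and 76.8 to 26.9, 35.3 and 48.0 CPM, and then to 69.6, 72.0, 72.1, 90.1 and 110 CPM in adults. Each step left no overlap, with log2 changes of 1.65 ± 0.0786 in CX (edgeR, adjusted p = 3.1e-12), −0.99 in CB before P7 and 1.22 ± 0.126 in CB after it (adjusted p = 5.58e-08; 1.01 without the 13 libraries). Ank2, an ankyrin that anchors membrane proteins to the axonal cytoskeleton, rose in CX from 436, 683 and 816 CPM to 1238, 1390 and 2011 CPM and in HIP from 345, 441 and 715 to 942, 1029 and 1100 CPM. In CB its P7 levels, 350, 405 and 507 CPM, overlapped with those at E17.5, and the adult levels were 1079, 1135, 1197, 1452 and 1628 CPM. The rises were 1.07 ± 0.134 in CX (adjusted p = 8.4e-07), 1.06 ± 0.146 in HIP (adjusted p = 3.61e-06) and, after P7, 1.67 ± 0.112 in CB (adjusted p = 9.39e-11; 1.5 without the 13 libraries), so the step came later in CB. The median of the summed level of 5 markers of mature neurons went from 760 to 2858 and 5149 CPM at the 3 ages in CX and from 780 to 824 and 3774 CPM in CB. Over the 102 libraries the deviations of Ank2, Foxp1, Deaf1 and Myt1l from their group medians correlated with those of the markers at 0.70 to 0.77. Each library was counted as a point although 3 came from each mouse. These were the highest values with this list of markers. Dscam was at 0.48, and Ctnnb1 (−0.58) and Phip (−0.48) were among those that went the other way. The part of neuron maturation in the changes with age was not tested. Katnal2, a katanin-like protein of microtubules, rose in CX after P7 from 1.68, 2.20 and 2.32 CPM to 2.25, 2.57, 2.72, 2.86 and 3.28 CPM, with ranges that just overlapped (0.42 ± 0.139, adjusted p = 0.0137).

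For the whole list from P7 to P35, 17 genes fell and 9 rose in CX (67.7% of all genes called, 34.5% lower and 33.2% higher). In HIP 10 fell and 6 rose (62.7% called, 31.5% lower and 31.3% higher). The medians were −0.195 and −0.037, beside −0.031 and −0.010 over all genes. In Cul3+/- mice 16 fell and 11 rose in CX (73.1% called, 37.3% lower and 35.8% higher), and 12 fell and 6 rose in HIP (65% called, 33.2% lower and 31.8% higher). WT mice gave 162 calls over both intervals and the 3 regions. Of these, 151 (93.2%) were called in the same direction in Cul3+/- mice, close to the 91.6% of such calls over all genes, 10 were not called there, and 1 was called in the opposite direction. That was Pogz, a zinc finger protein of heterochromatin, in CB from P7 to P35 (0.27 in WT, −0.17 in Cul3+/- mice). The WT value was −0.03 and not called without the 13 libraries. For comparison, 21 other autism-linked regulators of gene expression gave 11 falls and 4 rises in CX from E17.5 to P7 (median −0.253), 14 and 3 in HIP (−0.512) and 9 and 4 in CB (−0.146). A list of 21 autism-linked genes of neuronal communication went the other way in the forebrain, with 20 rises and 1 fall in CX (median 1.52) and 20 rises in HIP (1.23), and gave 9 rises and 8 falls in CB (0.154).

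In WT mice before birth, most of the 37 genes were higher in cortex than in cerebellum. At E17.5 25 were higher in CX than in CB and 2 were lower (61.7% of all genes called, 30.3% higher and 31.3% lower). At P7 18 were higher and 10 lower (82.9% called, 38.8% higher and 44.1% lower), and at P35 14 were higher and 10 lower (75.4% called, 36.5% higher and 38.9% lower). The medians were 0.334, 0.16 and −0.019, beside 0.015, −0.057 and −0.036 over all genes. With DESeq2 the P7 split was 21 and 7, and without the 13 libraries the P35 split was 20 and 8 (median 0.157). Higher in CX at all 3 ages were Foxp1, Myt1l, Tcf4, Bcl11a, Med13l, Ankrd11 and Tsc1 (18.9% of the 37 genes, 9.22% of all genes tested at every age), and none was lower at all 3 (10.9% of all). The ages came from different mice. In opposite directions at different ages 13 genes were called (35.1%), about the share of all genes (35%). Against HIP, 15 genes were higher in CX and 4 lower at E17.5 (46.5% called, 22.3% higher and 24.2% lower). At P7 the counts were 21 and 4 (57% called, 29.2% higher and 27.8% lower), and at P35 13 and 7 (51.5% called, 25.9% higher and 25.5% lower). HIP was above CB for 18 genes and below it for 2 at E17.5 (49.5% called, 24.5% higher and 25% lower). At P7 the counts were 12 and 11 (78.2% called, 36% higher and 42.3% lower), and at P35 14 and 12 (75.1% called, 36.8% higher and 38.3% lower). The contrasts of 1 age share libraries. In Cul3+/- mice, too, more of the 37 genes were higher in CX than in CB, 18 against 4 lower at E17.5 (61.4% of all genes called, 28.5% higher and 32.8% lower). At P7 the counts were 15 and 9 (79.9% called, 36.5% higher and 43.4% lower), and at P35 22 and 6 (80% called, 39.1% higher and 41% lower). Their medians were 0.125, 0.0396 and 0.225, higher than in WT mice in adults and lower at E17.5 and P7. For the list as a whole this difference was not tested. By gene, none of the 37 was called for a genotype effect that differed between regions at any age (lowest edgeR adjusted p 0.255, in adults). Without the 13 libraries the adult WT median, 0.157, was closer to that of Cul3+/- mice. HIP was above CB in Cul3+/- mice for 11, 13 and 20 genes at the 3 ages and below it for 4, 10 and 9 (53%, 75% and 77.2% of all genes called). CX was above HIP for 19, 13 and 17 genes and below it for 7, 7 and 10 (53%, 53.3% and 59.2% called). Single mice decided part of these counts. Without either of 2 WT mice at E17.5 (replicate 1 and replicate 6) HIP differed from CB for 13 genes in place of 20. Without either of 2 adult WT mice (replicate 2 in every region, and replicate 4 in CX with replicate 5 in HIP and CB) CX differed from HIP for 13 genes in place of 20.

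The transcription factors held several of the widest differences between CX and CB. Bcl11a was higher in CX than in CB at every age, with the CB levels given above set against 227, 272 and 426 CPM at E17.5, 122, 137 and 182 CPM at P7, and 61.6, 65.9, 67.0, 67.7 and 75.7 CPM at P35 in CX. The ranges were apart at each age, and the log2 difference was 1.88 ± 0.188 (edgeR, adjusted p = 2e-06), 2.71 ± 0.0916 (adjusted p = 5.38e-13) and 2.86 ± 0.094 (adjusted p = 2.73e-11). Tcf4 was at 1010, 1099 and 1277 CPM in CX against 294, 329 and 347 in CB at E17.5, a difference of 1.77 ± 0.0806 (adjusted p = 9.68e-10). By P7 the difference had shrunk to 0.22, with ranges still apart. Myt1l, a zinc finger factor that represses genes of other lineages in neurons, was at 361, 386 and 436 CPM in CX against 85.0, 90.5 and 104 in CB at P7 (2.02 ± 0.061, adjusted p = 1.52e-13), and Foxp1 in adults at 99.7, 107, 107, 110 and 114 CPM in CX against 21.5, 21.6, 23, 26.1 and 28.0 in CB (2.17 ± 0.0722, adjusted p = 3.05e-11). Tcf7l2 went the other way at P7, at 1.01, 1.54 and 2.84 CPM in CX and 2.84, 3.73 and 4.46 in CB (−1.24 ± 0.214, adjusted p = 7.51e-05). In adults its difference was −0.65 ± 0.299 (adjusted p = 0.0677) and 0.01 (adjusted p = 0.965) without the 13 libraries, and leaving out 1 of the mice of WT CB replicate 3 or 5 gave −0.31 (adjusted p = 0.317) or −0.44 (adjusted p = 0.274).

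Of the other roles, Med13l was higher in CX than in CB at E17.5, at 161, 180 and 271 CPM against 72.1, 81.2 and 95.2 CPM (1.23 ± 0.161, edgeR adjusted p = 2.28e-05). Phip was lower in CX at P7, at 93.3, 108 and 117 CPM against 177, 207 and 217 CPM, with all CB libraries higher (−0.96 ± 0.0441, adjusted p = 1.96e-11), and Tbl1xr1 was lower by 0.32 on the log2 scale (SE 0.0435, adjusted p = 5.63e-06). Cntnap2 was lower in CX at E17.5 (−0.82 ± 0.0864, adjusted p = 3.27e-06) and higher at P7 (1.84 ± 0.0889, adjusted p = 3.43e-11), as its levels above show. Katnal2 was lower in CX at E17.5, with 2.31, 2.88 and 3.64 CPM against 4.10, 4.49 and 4.88 in CB (−0.66 ± 0.119, adjusted p = 0.000367). In adults Dscam, an adhesion molecule of neurite spacing, was at 77.5, 79.6, 81.7, 82.8 and 85.2 CPM in CX and 20, 20, 22.3, 27.9 and 37.5 in CB. All CX values were higher (1.7 ± 0.125, adjusted p = 6.83e-08). Kmt2c, a methyltransferase of lysine 4 of histone H3, was lower in the adult CX (110, 115, 118, 122 and 126 CPM) than in CB (173, 178, 187, 273 and 315 CPM), with −0.90 ± 0.126 (adjusted p = 3.39e-05), or −0.60 without the 13 libraries. For Kdm6b that adult difference was −1.30 ± 0.316 (adjusted p = 0.00256) and −0.52 without them.

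**Figure D3:**
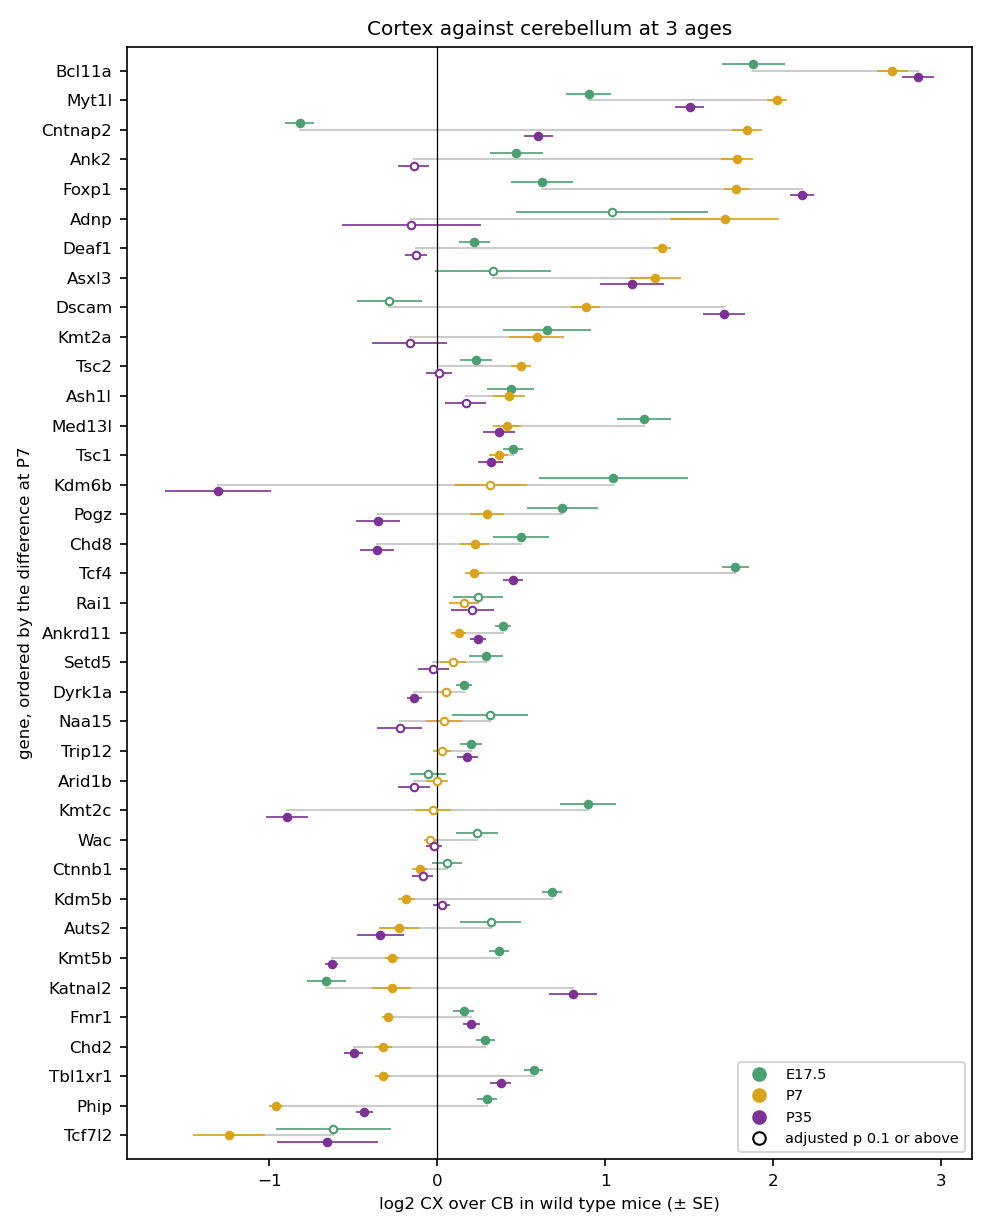
Log2 difference between CX and CB in WT mice for each of the 37 risk genes at E17.5 (green), P7 (yellow) and P35 (purple) (positive values are higher in CX; bars are ± 1 SE; open symbols have an adjusted p of 0.1 or more). Bcl11a lies far to the right at all 3 ages (1.88, 2.71 and 2.86), and Cntnap2 changes side between E17.5 (−0.82) and P7 (1.84).

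Between CX and HIP the log2 differences had medians over the 37 genes of 0.16, 0.215 and 0.142 at the 3 ages. Myt1l was higher in CX at E17.5, at 367, 442 and 489 CPM against 127, 167 and 210 CPM (1.37 ± 0.135, edgeR adjusted p = 4.48e-06), and Med13l by 0.79 ± 0.16 (adjusted p = 0.00158). Katnal2 (−1.16 ± 0.12, adjusted p = 6.52e-06) and Cntnap2 (−1.04 ± 0.0868, adjusted p = 1.04e-06) were lower in CX at that age, Cntnap2 at 34.2, 39.9 and 47.2 CPM against 75.8, 82.1 and 88.1 CPM in HIP. Katnal2 stayed lower in CX, by 0.70 on the log2 scale at P7 (SE 0.114, adjusted p = 0.000129) and 0.43 at P35 (SE 0.137, adjusted p = 0.0223). At P7 Asxl3 was at 28.1, 39.2 and 73.8 CPM in CX against 14.1, 18.2 and 20 in HIP (1.27 ± 0.15, adjusted p = 6.82e-06), without overlap, and at 12.5 to 16.1 against 9.18 to 10.2 CPM in adults (0.61 ± 0.185, adjusted p = 0.0175). Adnp was 1.40 ± 0.317 higher in CX at P7 on its own row (adjusted p = 0.00195), 0.94 without the 13 libraries and 0.45 as the sum with Gm20716. Ctnnb1 was lower in CX at P7, at 631, 718 and 775 CPM against 995, 1061 and 1076 CPM (−0.54 ± 0.0426, adjusted p = 1.08e-07), and in adults Tcf4 was lower (−0.37 ± 0.0578, adjusted p = 0.000206) and Foxp1 higher (0.59 ± 0.0686, adjusted p = 1.9e-05) in CX. Higher in CX at all 3 ages were Myt1l, Bcl11a, Med13l, Tsc1, Fmr1, Ank2 and Dscam (18.9%, against 6.46% of all genes), and lower at all 3 Tcf4, Ctnnb1 and Katnal2 (8.11% against 8.37%).

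The changes with age were also compared between regions. They differed for a share of the 37 genes that was a little below that of all genes between CB and CX and further below it between HIP and CX. In a fit of all WT libraries with mouse as a block, the change from E17.5 to P7 differed between CB and CX for 25 of the 37 genes, with a higher estimate in CB for 15 and a lower one for 10 (69.6% of all genes called, 34.3% higher and 35.3% lower), and the change from P7 to P35 for 21 genes, 14 higher and 7 lower (61% called, 29.8% higher and 31.2% lower). Between HIP and CX it differed for 10 genes before P7 (38.6% called) and for 2 after it (17.6% called), Deaf1 and Ctnnb1. Cntnap2 showed the largest difference between CB and CX, −2.65 ± 0.125 before P7 (edgeR, adjusted p = 2.53e-18), followed by Tcf4 at 1.57 ± 0.0872 (adjusted p = 1.34e-16). After P7 Ank2 led, at 1.95 ± 0.185 (adjusted p = 9.34e-11). In the list of 21 genes of neuronal communication the change before P7 was lower in CB for 19 genes and higher for none, with a median of −1.26.

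None of the 37 genes passed the test for the loss of 1 Cul3 copy. In each of the 9 combinations of age and region edgeR called none of them between Cul3+/- and WT mice, where 1 gene of all tested, Cul3, was called (0.00563% to 0.00603% of the genes). At an unadjusted p under 0.05 there were none of the 37 in embryonic CX (1.67% of all genes), 1 in embryonic HIP (Kdm6b; 2.29%) and 1 in embryonic CB (Ankrd11; 3.5%). At P7 there were none in CX (3.22%) and HIP (5.05%) and 1 in CB (Asxl3; 4.89%). In adults there were 2 in CX (Kdm6b and Cntnap2; 3.66%), 3 in HIP (Kdm6b, Tcf7l2 and Rai1; 6.25%) and 10 in CB (14.4%). The replicate number pairs the samples in embryonic CX by the rule used here. With it as a block, 8 of the 37 genes lay under that bound in embryonic CX and 12 in embryonic CB. None was called (lowest edgeR adjusted p 0.214 and 0.477). The share of all genes under the bound in these blocked fits is not given here, so the counts are not read as a response of the 37 genes. The lowest adjusted p of the 37 genes was 0.324, in the adult CB, and 0.796 to 0.997 in the other combinations. DESeq2 called none of the 37 either. The median log2 fold change over the list lay between −0.208 (adult CB) and 0.093 (embryonic CB), beside −0.003 to 0.007 over all genes, with a median SE per gene of 0.0536 to 0.152. The sign of most estimates went with the combination. In Cul3+/- mice 32 of the 37 estimates were lower in embryonic CX, 30 in embryonic HIP, 31 in CX at P7 and 34 in the adult CB, and 32 were higher in embryonic CB, 29 in CB at P7 and 29 in the adult CX. Without the 13 libraries the medians came closer to 0 in embryonic HIP (−0.0404 from −0.167), CX at P7 (−0.0113 from −0.083), CB at P7 (−0.00164 from 0.034) and the adult CB (−0.0318), moved to 0.178 in embryonic CB, and none of the 37 genes was called. In embryonic CB 13 genes then had an unadjusted p under 0.05 in place of 1, with a lowest edgeR adjusted p of 0.328. The share of all genes under that bound in this smaller fit is not given here, so the count is not read as a response of the 37 genes.

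**Figure D4:**
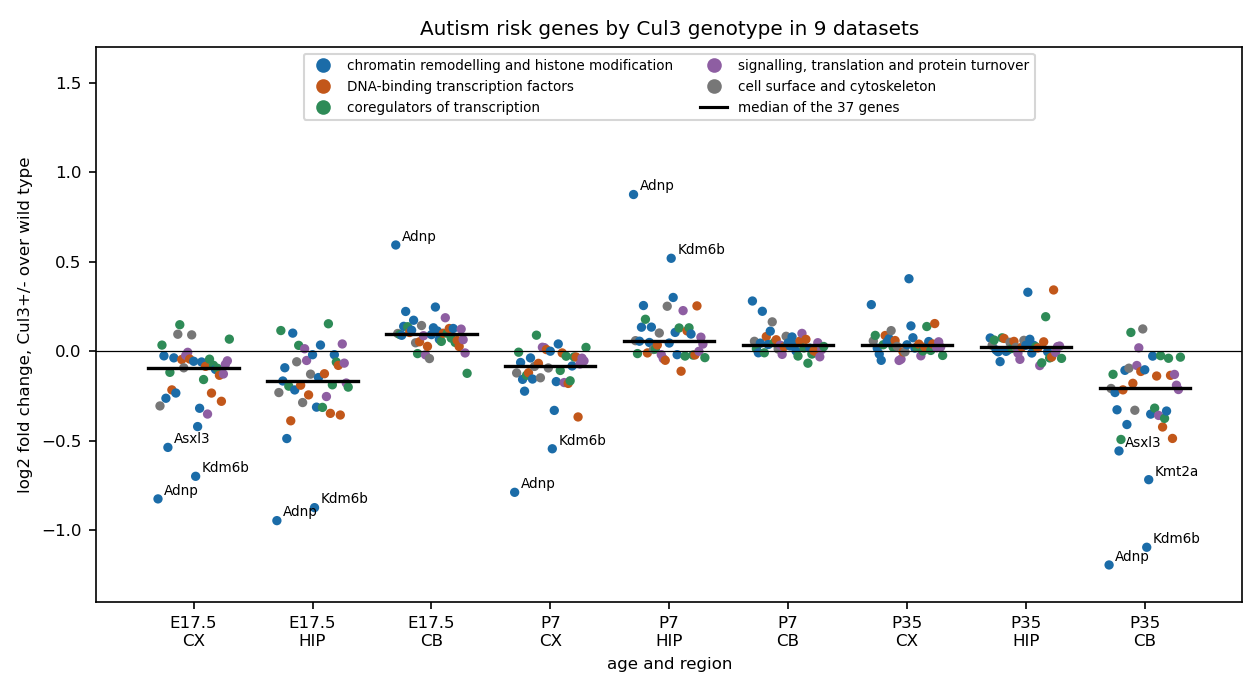
Log2 fold change of Cul3+/- over WT mice for the 37 risk genes (points, coloured by role as in the legend) in each of the 9 combinations of age and region, with a bar at the median. The medians run from −0.208 in the adult CB to 0.093 in embryonic CB, and no point passed the adjusted p of 0.1.

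The genes with the smallest p in each combination show how small and how variable the differences were. In embryonic CX they were Ash1l (−0.26 ± 0.122), Kmt2c (−0.32 ± 0.151) and Adnp (−0.83 ± 0.392), all with an edgeR adjusted p of 0.991. Without WT replicate 3, whose Adnp level of 214 CPM stood above 35.5 to 94.6 CPM in the other WT mice, these were −0.15, −0.17 and −0.26. In embryonic HIP they were Kdm6b (−0.87 ± 0.377, adjusted p = 0.941), Ankrd11, a repressor-associated chromatin regulator (0.11 ± 0.0596), and Bcl11a (−0.39 ± 0.229). Without the 13 libraries Kdm6b was at −0.22 and Bcl11a at −0.17. In embryonic CB they were Ankrd11 (0.09 ± 0.0388, adjusted p = 0.988), Setd5 (0.13 ± 0.0591) and Chd2 (0.12 ± 0.056). At P7 they were Adnp (−0.79 ± 0.424), Ctnnb1 (0.09 ± 0.0503) and Kdm6b (−0.55 ± 0.317) in CX, and Adnp (0.88 ± 0.416), Katnal2 (0.25 ± 0.133) and Kdm6b (0.52 ± 0.294) in HIP. In CB at P7 they were Asxl3 (0.22 ± 0.084, adjusted p = 0.964), Chd8 (0.11 ± 0.0583) and Naa15, of the complex that acetylates the start of proteins (0.10 ± 0.0522). Adnp and Kdm6b thus had estimates of either sign in different combinations. In CX at P7 the estimates turned to 0.0078 for Adnp and −0.02 for Kdm6b without WT replicate 4, 1 of the 13 libraries. In HIP at P7 Cul3+/- replicate 3, also 1 of the 13, was at 59.7 CPM of Adnp, against 7.54 to 19.3 CPM in the other Cul3+/- mice, and without the 13 libraries Adnp was at 0.25 and Kdm6b at 0.26 there.

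In the adult CX Cntnap2 was at 114, 120, 124, 128 and 131 CPM in WT mice and 124, 127, 130, 136 and 144 CPM in Cul3+/- mice, with overlapping groups (0.12 ± 0.0498, edgeR adjusted p = 0.997). Kdm6b was at 5.91, 6.21, 6.70, 6.88 and 10.1 CPM against 6.96, 7.53, 8.90, 11.4 and 12 CPM in CX (0.41 ± 0.178). In HIP it was at 5.12, 5.19, 5.75, 6.6 and 6.73 CPM against 5.63, 7.51, 7.74, 7.76 and 8.05 CPM (0.33 ± 0.111, adjusted p = 0.796). In both regions 1 mouse kept the groups from being apart. Also in the adult HIP, Rai1, a chromatin-bound regulator of transcription, was at 36.7, 41.5, 42.1, 42.6 and 48.3 CPM against 43.2, 44.8, 48.0, 48.7 and 55.9 CPM (0.19 ± 0.077). Tcf7l2 was at 1.41, 1.49, 1.61, 1.76 and 1.92 against 1.59, 1.92, 2.08, 2.18 and 2.57 CPM (0.34 ± 0.151). These groups overlapped as well. Ankrd11 was the third in the adult CX, at 217, 230, 238, 241 and 257 against 241, 246, 251, 252 and 253 CPM (0.09 ± 0.0431).

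In the adult CB the largest differences came with WT libraries that stood apart. Chd8, a chromatin remodeler, was at 110, 112, 112, 136 and 194 CPM in WT and at 89.6, 98.5, 102, 109 and 110 CPM in Cul3+/- mice. Its ranges did not overlap, if narrowly, and it was the 1 gene of the 37 for which this held in any of the 9 combinations. The share of all genes with such ranges is not given here, so this does not set Chd8 apart. The log2 fold change of Chd8 was −0.41 ± 0.146 (edgeR, adjusted p = 0.324). Setd5 was at 93.8, 96.2, 108, 118 and 154 against 86.0, 87.7, 92.7, 92.9 and 100 CPM (−0.34 ± 0.119). Auts2 was at 48.8, 48.9, 51.5, 58.0 and 106 against 42.8, 43.1, 44.1, 45.5 and 50.3 CPM (−0.49 ± 0.195, adjusted p = 0.339). In each case a WT library was far above the rest. Kmt2a in Cul3+/- mice was at 67.6, 72.1, 75.2, 75.9 and 87.4 CPM, beside WT values of up to 239 CPM, and Kdm6b at 8.65, 8.90, 10.0, 11.4 and 12 CPM, beside WT values of 8.83, 9.64, 10.4, 22 and 57.1. The 3 lower WT values of Kdm6b lay among the Cul3+/- values. Without WT replicates 3 and 5 the median over the 37 genes was −0.0318, and 4 genes had an unadjusted p under 0.05, with a lowest edgeR adjusted p of 0.349. The share of all genes under 0.05 in this fit is not given here. Chd8 (−0.16), Setd5 (−0.14) and Auts2 (−0.16) were then closer to 0, and Cntnap2 was higher (0.12). The sums of markers of other cells given here overlapped between genotypes in the adult CB. The sum of 5 choroid plexus markers ran from 10.7 to 3019 CPM (median 20.2) in the adult WT CB and from 16.3 to 2058 CPM (median 511) in Cul3+/- CB. That of 5 oligodendrocyte markers ran from 2231 to 5115 CPM (median 4405) against 4268 to 5411 CPM (median 5254). The sums of mature neuron markers (3745 to 3857 against 3663 to 3922 CPM) and of granule cell markers (3228 to 3462 against 3236 to 3412 CPM) lay close together, and the part of these cells in the differences was not tested. With the exon length correlation of each library as a covariate, a setting added after the data were seen, 11 of the 37 genes were called lower in the adult CB of Cul3+/- mice, among them Chd8 (−0.38, adjusted p = 0.0567), Pogz (−0.38, adjusted p = 0.0563) and Med13l (−0.30, adjusted p = 0.0563), in a fit that called 1617 genes of all.

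**Figure D5:**
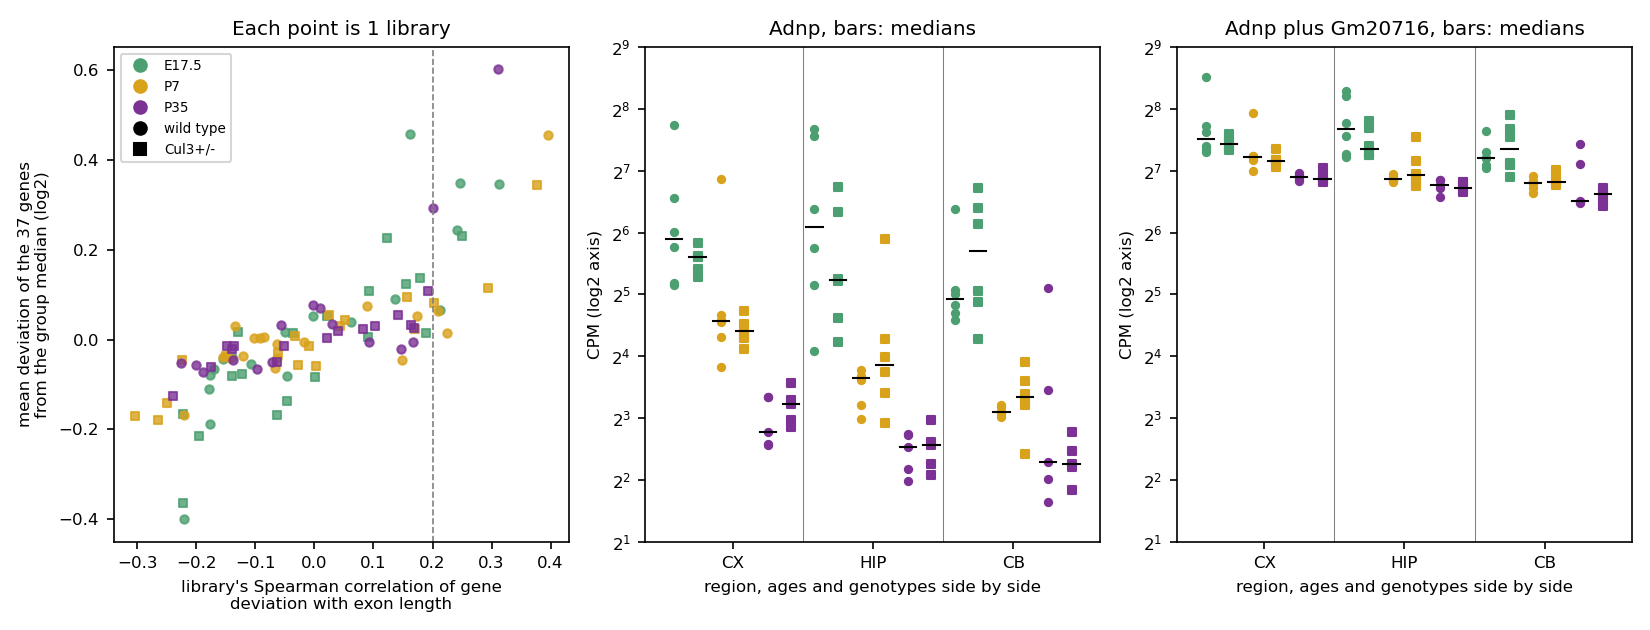
Left, mean log2 deviation of the 37 risk genes from their group medians in each of the 102 libraries (y) against the Spearman correlation of the deviation of all genes with exon length (x), with a dashed line at the bound of 0.2 that 13 libraries pass. Middle and right, CPM on a log axis of Adnp and of Adnp plus the readthrough row Gm20716 in the libraries of each group (circles, WT; squares, Cul3+/-; green, E17.5; yellow, P7; purple, P35; bars, medians), where the fall with age is steep for Adnp alone (HIP WT means 97.0, 11.4 and 5.5 CPM) and shallow for the sum (220, 117 and 108 CPM).

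Averaged over the 9 combinations with limma-voom and the mouse as a random block, the genotype effect of the 37 genes ran from −0.10 (Asxl3) to 0.05 (Ctnnb1), with a median of −0.035 beside −0.002 over all genes. None was called, where 14 of 20859 genes were (0.0671%), the lowest p was that of Ctnnb1 (0.0704) and the lowest limma adjusted p 0.938. For 34 of the 37 genes the interval of ± 1.96 SE lay within 0.25 of 0 on the log2 scale, and the widest interval was that of Adnp, from −0.478 to 0.336. For the mean over regions of a single age, 25 such intervals lay within 0.25 at E17.5, and 32 and 25 did so at P7 and P35. No gene was called for a difference of the genotype effect between regions or between ages by edgeR. At an unadjusted p under 0.05 there were 1 gene (Trip12) at E17.5, none at P7 and 15 at P35 for regions (lowest adjusted p 0.255, Chd8; 15.8% of all genes in adults), and none in CX, 2 in HIP and 10 in CB for ages (lowest adjusted p 0.307, Setd5; 13.2% of all genes in CB).

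Within a group of mice, the median spread of the risk genes was below that of all genes, which were not matched for count level, and the risk genes varied together. The median SD of log2 CPM within groups was 0.187 for the 37 genes and 0.259 for 20859 genes, and it was largest for Adnp (0.765), Kdm6b (0.536), Tcf7l2 (0.409), Asxl3 (0.395) and Kmt2a (0.365) and lowest for Dyrk1a (0.068). Without the 13 libraries it was 0.540 for Adnp and 0.354 for Kdm6b. Over pairs of the 37 genes the median correlation of deviations across the 102 libraries was 0.435, and it reached 0.943 for Ash1l and Kmt2a, both histone methyltransferase genes. The value for pairs of other genes is not given here. The deviation of 31 of the 37 genes had a Spearman correlation above 0.3 with the exon length measure, so what the genes share across mice and what the libraries share cannot be told apart here.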

How the data were processed

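Brain RNA of 36 mice was sequenced in 108 stranded libraries after depletion of ribosomal RNA, 1 for each of 3 regions per mouse. The authors trimmed reads with Cutadapt 1.14, aligned them with STAR 2.5.3a to GRCm38 and deposited the expected counts of RSEM 1.3 per gene, without filter or normalization; an expected count shares a read among the transcripts it matches, and 5.76% of the values were not whole. These counts were rounded and tested here in R 4.3.3 with edgeR 4.0.16 (filterByExpr at 10 counts per library and 15 in total, TMM, quasi-likelihood test, Benjamini-Hochberg adjustment over all genes, threshold 0.1). Changes with age were fitted per region over the 3 ages, regions and regions by age with mouse as a block, and genotype per age and region. The mean genotype effect used limma-voom (limma 3.58.1) with a consensus correlation of 0.103 between libraries of a mouse. CPM use TMM library sizes, and log2 CPM a prior count of 2. For genotype, Cul3 was tested by an exact permutation test over mice.

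The annotation behind exon lengths and neighbours was GENCODE M21, while the authors counted with Gencode M16. Groups and replicate numbers came from the labels. Numbers were taken to pair WT and Cul3+/- samples where every pair's deviations correlated above 0.1, which held in embryonic CX (6 of 6 pairs, 0.113 to 0.759). In embryonic HIP, embryonic CB and CX at P7 5 of 6 pairs passed (medians 0.335, 0.292 and 0.168), in the other 5 combinations 1 to 4 pairs passed of 5 or 6, and the labels do not say what a number stands for. The 37 genes, the marker and comparison lists and the tests were chosen with earlier results of these data known. No pattern known then is treated in this text as independent support. The genes named with values are, per region and interval in WT, the 3 largest rises and falls among those called; between regions, the 3 (CX and CB) or 2 (CX and HIP) highest and lowest; for genotype, every gene called and the 3 smallest p per combination. Other genes, among them Chd2, Arid1b, Tsc1, Trip12 and Dyrk1a, were picked after their values were seen, to fill out their roles.

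On simulated counts with 200 changed genes the tests recovered 54% of them for genotype in CX at P7 (17521 genes). There they recovered 13.4% of those changed by 0.25 on the log2 scale and 89.4% of those changed by 1. The share was 48% for genotype in the adult CB (16940 genes), 45.5% for E17.5 to P7 in WT CX (18277 genes) and 89% for the mean effect (19877 genes). Unchanged genes were called too, 15, 11, 9 and 46 in the same order. No deviation with exon length was simulated. Alternatives were DESeq2 1.42.0, upper-quartile normalization, no filter, the likelihood ratio test, RUVs with 3 or 5 factors (own code), log2 CPM of Xist as a covariate, the replicate block, the left-out mice put back with either genotype, and each replicate left out. Chosen after the data were seen were the fits without the 13 libraries, with the length correlation as a covariate, and with rows that share exons added. Over 240 pairs of replicates none held identical values.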

Additional observations from a re-analysis of the deposited data

Results flagged for a closer look

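In 2 libraries the mean deviation of the 37 genes from their group median lay far from that of the other mice of the group: 0.458 in embryonic WT CX replicate 3 and 0.456 in WT CX replicate 4 at P7, both on the log2 scale. Over 666 combinations of gene and group 62 held such a distant library, 41 of them on the high side. In WT CX at P7 there were 12, and in all of them the distant library was replicate 4. The genes vary together across libraries, so these combinations are not independent and are not set against a chance rate. The share of such combinations over all genes is not given here.

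For a further set of genes the change with age ran in opposite directions in 2 regions of WT mice. The difference itself passed the test of region by age. Opposite calls between regions were made for 21.6% of the risk genes from E17.5 to P7, below the 27.1% of all genes tested in every region. For P7 to P35 the shares were 21.6% and 14.2%. Whether these shares differ was not tested, and the earlier interval does not set the risk genes apart. From E17.5 to P7, the change in CB minus that in CX was −2.65 for Cntnap2, 1.57 for Tcf4, −1.30 for Ank2, 0.91 for Tbl1xr1 and 0.46 for Fmr1, and the change in CB minus that in HIP was −1.90 for Myt1l, −1.31 for Dscam and −1.21 for Foxp1. From P7 to P35, the change in CB minus that in CX was 1.95 for Ank2, −1.05 for Katnal2, 0.90 for Kmt2c, 0.68 for Pogz, 0.55 for Myt1l, −0.49 for Phip and −0.47 for Fmr1, and the change in CB minus that in HIP was −0.69 for Tbl1xr1. Without the libraries that deviated with exon length, the WT rise of Pogz in CB was not called and that of Kmt2c was smaller, as given above. In Cul3+/- mice Pogz fell in CB over this interval (−0.17).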

How the results depend on the processing

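Counts of called genes were judged by size alone: the same if none was called in both fits or if they lay within 1.5 times of each other. Cul3 was judged by its sign and its side of the threshold. Of these checks 693 were the same, many of them genotype counts with no gene called in either fit. A further 6 counts moved beyond that bound, and 4 checks lost the call of Cul3. Leaving out 1 mouse at a time gave 13 to 23 genes for HIP against CB at E17.5 (20 with all mice) and 13 to 20 for CX against HIP at P35 (20 with all). RUVs with 5 factors called 2 of the 37 genes in the adult HIP, Kdm6b (0.35, adjusted p = 0.0547) and Rai1 (0.17, adjusted p = 0.0374), in a fit that called 476 of 17123 genes, and the length correlation as a covariate called 11 in the adult CB. With the 2 adult mice put back under the genotypes of the study's table, opposite to those of the labels, the change of Cul3 was −0.58 in CX, −0.64 in HIP and −0.44 in CB, not called, while with the labels' genotypes it was −0.96, −1.0 and −0.77 and called. With the replicate block, Cul3 in the adult CB was −0.73 (edgeR, adjusted p = 0.114), and the block changed no call of the 37 genes in the genotype tests. Reversed were Tcf7l2 between the adult CX and CB without the 13 libraries (0.0111) and Adnp by genotype in CX at P7 without the 13 libraries or without WT replicate 4 (0.0078 in both); leaving out other single libraries gave down to −0.95. For the named genes and the counts by direction, 2933 checks were the same by these rules. A call was lost in 10 and gained in 5, 14 counts moved and 3 estimates reversed. The causes of these changes were not tested. At this depth and with 5 or 6 mice per group, changes of 0.25 on the log2 scale in single combinations would mostly be missed.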
